A study of Mus musculus with 3 samples.

Results

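The natriuretic peptides and the proteins that process and bind them were measured in adult mouse hearts as 7 genes, namely the peptide genes Nppa, Nppb and Nppc, the protease gene Corin and the receptor genes Npr1, Npr2 and Npr3. Every gene probe whose gene name on the array was one of these symbols was taken, which gave 13 of 41174 gene probes and 31 of 43379 gene spots per array. Of these, 5 probes belonged to the peptides, 7 to the receptors and 1 to Corin. All 13 probes passed the signal minimum of 20 that left 29576 probes to be tested, and all 13 were well above background in both dyes on every array, with none saturated.

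Nppa encodes atrial natriuretic factor (ANF) and Nppb encodes brain natriuretic peptide (BNP), hormones that cardiomyocytes release when the heart wall is stretched and that lower blood pressure through the kidney and vessels. Nppa is transcribed in the fetal atria and ventricles and retreats to the atria after birth. Its return in the ventricle, together with Nppb, is a classical sign of hypertrophy and heart failure. Corin, a membrane protease of cardiomyocytes, cuts the ANF precursor into the active hormone. Npr1 is the receptor guanylyl cyclase for ANF and BNP, Npr2 is the one for C-type natriuretic peptide (CNP, encoded by Nppc), and both make the second messenger cGMP, whereas Npr3 takes up the peptides and clears them.

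The study asked how loss of Lrrc10, a gene for a cardiac protein with leucine-rich repeats, alters the heart. Each of 3 two-color Agilent arrays compared heart RNA of Lrrc10-/- mice, labeled with Cy5, with heart RNA of Lrrc10+/+ (WT) mice, labeled with Cy3, both of strain C57/BL6 and 2 months of age. Each RNA was a pool of 2 hearts, and the methods describe littermates and independent biological replicates. The labels call the Cy3 sample a reference pool and do not say whether it was the same RNA on each array. Over all tested probes the level varied between arrays with a median SD of 0.38 in Cy3 and of 0.21 in Cy5 on the log2 scale, so Cy3 was the more variable channel.

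Lrrc10 itself went against the labels. On replicates 1, 2 and 3 its log2 ratio of Cy5 over Cy3 was 4.91, 5.56 and 5.65, with a mean of 5.37 ± 0.41 (SD, n = 3; limma, adjusted p = 0.000251), so that the deleted gene was brighter in the dye labeled Lrrc10-/- on every array. Whether this probe lies in the deleted part of the gene is not given in the sources used here. Dyes are therefore named below as the channel labeled Lrrc10-/- (Cy5) and the channel labeled WT (Cy3), and a negative log2 ratio means more signal in Cy3. By the dyes in the labels, the directions found here for Nppa and Myh7 are opposite to those the study gives on its adult arrays for ANF and the fetal myosin heavy chain. The directions for Nppa, Myh7 and Nppb are also opposite to its quantitative PCR of ANF, that myosin and BNP in older hearts. The study gives more ANF protein in Lrrc10-/- hearts as well, by Western blot. Whether the channels were exchanged is not settled by the sources used here, and an exchange would turn every direction given below. All arrays had the same dye orientation, so dye and group cannot be told apart, and all lay on 1 slide, so slides could not be compared. Across the tested probes the log2 ratios of replicates 1 and 2 had a Pearson r of 0.0964, those of 1 and 3 of -0.0371 and those of 2 and 3 of -0.184, each across genes that are not independent replicates.

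All 5 peptide probes were brighter in Cy3, the channel labeled WT, on all 3 arrays, by mean log2 ratios between -1.02 and -0.78. Over all tested probes, 11.0% were brighter in Cy3 on all arrays and 10.0% in Cy5. Where background was corrected by normexp and the ratios were only centred on each array's median, 2 of the 5 peptide probes (Nppa probe 1 and Nppc) were brighter in Cy3 on all arrays, beside 28.3% of all tested probes. None of the 7 receptor probes kept to 1 channel with the processed signals, nor did Corin, whereas with normexp and centring Npr1 was brighter in Cy3 on all arrays. No member probe was called by limma after adjustment over all 29576 tested probes (adjusted p = 1.00 for each), where 0.00% of tested probes were called brighter in Cy3 and 0.00676% in Cy5. At an unadjusted limma p of 0.05, the 5 peptide probes passed and no receptor or Corin probe did, against 1.52% of all tested probes brighter in Cy3, and 1 member probe, Nppa probe 1, passed the methods' t-test unadjusted, against 2.20% of tested probes brighter in Cy3 and 2.01% in Cy5, while 0 passed it adjusted. The number that passed unadjusted in limma rested on the arrays and the processing. Without replicate 1 it fell to 1 peptide probe, Nppa probe 1, against 0.639% of all tested probes brighter in Cy3. Without replicate 2 the 5 peptide probes passed, against 2.52%, and Corin passed in Cy5, against 2.31%. Without replicate 3 it was 4 peptide probes, all but Nppa probe 1, against 2.44%. With no signal minimum it was 2, Nppa probe 1 and Nppc, against 2.13%. Nppb probe 2 alone of the peptide probes did not pass with normexp and loess, against 2.70%, or with background-subtracted signals centred on the median, against 3.18%. With normexp and centring, Nppa probe 1, Nppb probe 1, Nppc and Npr1 passed in Cy3, against 16.3% of all tested probes, and Npr3 probe 1 and Corin passed in Cy5, against 14.8%, while Nppa probe 2 and Nppb probe 2 did not. With 3 arrays, the smallest two-sided p of an exact sign-flip test is 0.25.

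**Figure D1:**
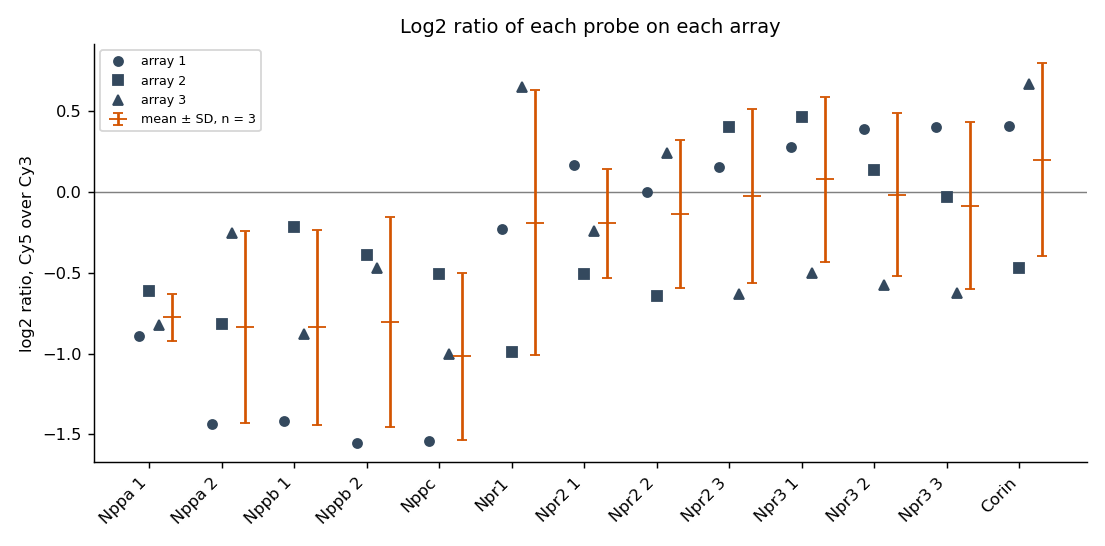
Log2 ratio of Cy5 over Cy3 (vertical axis) for each of the 13 probes (horizontal axis) on replicates 1, 2 and 3 (circles, squares and triangles), with the mean ± SD (orange, n = 3). The 5 peptide probes lie below 0 on every array, and the other 8 probes have arrays on both sides of 0.

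The probe sequences show which stretch of each peptide transcript was read. They are written 5′ to 3′ as in the array files. Nppa had 2 probes, each printed in 10 copies per array. The probes of a gene are numbered here by brightness. Of the brighter Nppa probe the first 30 bases are shown.
Nppa probe 1: cttcctgccttcatctatcacgatcgatgt
Nppa probe 2: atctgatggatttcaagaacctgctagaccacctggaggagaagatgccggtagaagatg
Nppb probe 1: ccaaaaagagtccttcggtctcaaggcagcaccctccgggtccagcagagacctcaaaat
Nppb probe 2: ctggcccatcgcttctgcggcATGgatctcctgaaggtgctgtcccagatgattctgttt
Nppc probe 1: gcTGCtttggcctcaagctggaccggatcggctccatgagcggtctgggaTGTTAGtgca
Capitals in Nppb probe 2 mark the first ATG that opens a reading frame to the end of the probe, at base 22 counted from its 5′ end. Capitals in the Nppc probe mark 2 cysteine codons, the first and the last of 17 codons, and the stop codon that follows the last one. This is the stretch that encodes the ring of CNP, which a disulfide bond between those cysteines closes. No stretch of 20 bases of any member probe was found in another gene probe on the array.

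Nppa probe 1, the brighter of the 2, had processed signals of 56993, 78442 and 43095 in Cy5 and of 105674, 120046 and 76212 in Cy3 on replicates 1, 2 and 3. Cy3 was brighter on each array. Its log2 ratios were -0.89, -0.61 and -0.82, with a mean of -0.78 ± 0.14 (SD, n = 3), which is 1.71-fold more signal in Cy3 (95% interval of limma, 1.26 to 2.32). With normexp and centring on the median the mean was -0.47. The SD of this probe was below the median SD of 0.39 over all tested probes. After quantile normalization of the average intensities between arrays, its lowest Cy3 level lay 0.26 above its highest Cy5 level on the log2 scale, so the channels did not overlap.

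Nppa probe 2, in the coding stretch shown above, had processed signals of 8929, 13744 and 5603 in Cy5 and of 24169, 24233 and 6682 in Cy3. Replicate 3 had little difference between the dyes, and replicate 1 had the most. Its log2 ratios were -1.44, -0.82 and -0.25, with a mean of -0.84 ± 0.59 (SD, n = 3), or 1.79-fold more in Cy3 (95% interval 1.21 to 2.64). Without replicate 1 its mean was -0.54 and with normexp and centring on the median it was -0.50. Without replicate 3 its mean was -1.13 and limma called it (adjusted p = 0.0404), in a fit that called 0.453% of tested probes brighter in Cy3. Its channels overlapped between arrays, since the Cy3 level varied with an SD of 0.94 on the log2 scale against 0.41 in Cy5, where the medians over all tested probes were 0.38 and 0.21.

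The 2 Nppa probes were each read 10 times per array, which shows the error of a single spot. All 10 copies of both probes were brighter in Cy3 on all 3 arrays. The SD between copies of the log2 ratio ranged from 0.023 to 0.079 over both probes and all arrays, close to the median of 0.063 over the 189 tested probes printed 10 times. Between arrays the SD was 0.14 for probe 1 and 0.59 for probe 2, against a median of 0.35 for those 189 probes. The probes also differed from each other within an array by more than their copies did, by a log2 difference of 0.55, 0.20 and -0.57 (probe 1 minus probe 2) on replicates 1, 2 and 3.

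Nppb was read by 1 spot of each of its 2 probes. Probe 1 had processed signals of 61510, 92225 and 42940 in Cy5 and of 164251, 107084 and 79088 in Cy3, with log2 ratios of -1.42, -0.22 and -0.88. The difference was small on replicate 2 and large on replicate 1. The mean was -0.84 ± 0.60 (SD, n = 3), or 1.79-fold more in Cy3 (95% interval 1.19 to 2.69). Probe 2, which spans the start codon, had processed signals of 50119, 73443 and 33501 in Cy5 and of 147390, 96401 and 46494 in Cy3, with log2 ratios of -1.56, -0.39 and -0.47. Its mean was -0.81 ± 0.65 (SD, n = 3), or 1.75-fold (95% interval 1.15 to 2.67). The mean of probe 2 was -0.55 with normexp and loess, -0.23 with normexp and centring on the median and -0.43 without replicate 1, and that of probe 1 was -0.55 without replicate 1. Both probes gave replicate 1 the largest difference, and their ratios differed by 0.41 on replicate 3 (probe 1 minus probe 2, -0.41). The levels of the channels lay apart by 0.035 on the log2 scale for probe 1 and overlapped for probe 2.

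Nppc was dim, with processed signals of 108, 153 and 80.5 in Cy5 and of 315, 218 and 161 in Cy3. Each Cy3 signal was above all 3 Cy5 signals. The log2 ratios were -1.54, -0.51 and -1.003, with a mean of -1.02 ± 0.52 (SD, n = 3), or 2.02-fold more in Cy3 (95% interval 1.29 to 3.17). With normexp background correction the mean was -0.36 after loess and -0.42 after centring on the median. The order of the arrays was that of Nppb probe 1, with replicate 1 lowest and replicate 2 nearest to 0. Over the members, 3 probes (Nppa probe 1, Nppb probe 1 and Nppc) had all Cy3 levels above all Cy5 levels, which held for 3.94% of all tested probes, while 3.71% had all Cy5 levels above all Cy3 levels.

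**Figure D2:**
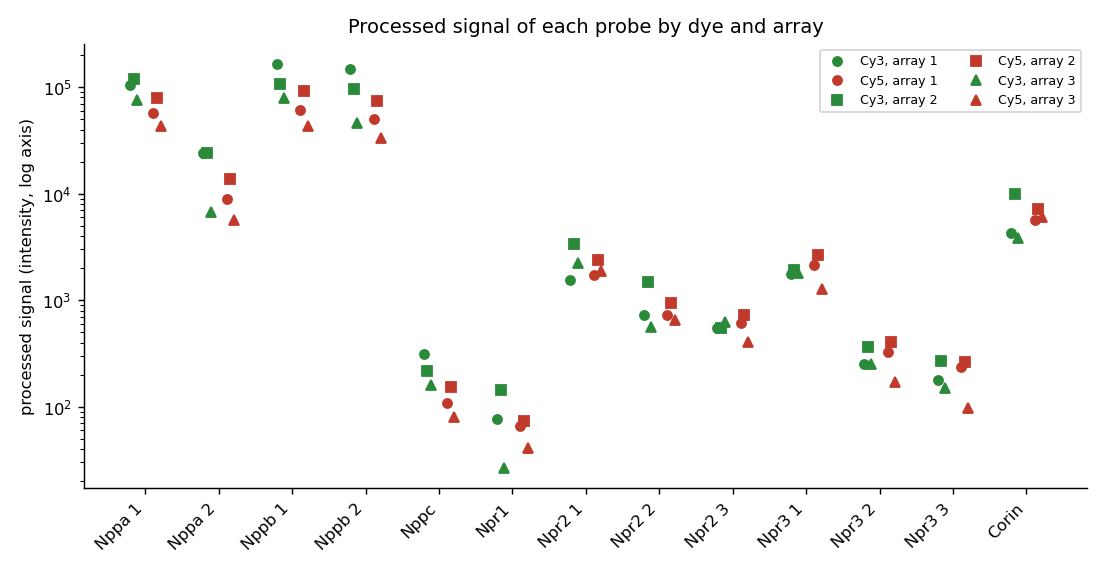
Processed signal (vertical axis, intensity on a log axis) of each of the 13 probes (horizontal axis) in Cy3 (green) and Cy5 (red) on replicates 1, 2 and 3 (circles, squares and triangles). The green points lie above the red points of the same array for the 5 peptide probes, from the dim Nppc probe to the bright Nppb probes.

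A probe was counted as taken by the selection where its ratio was at least 1.2-fold the same way with an array p under 0.05 on each of the 3 arrays. Under other background or dye corrections only the ratios were recomputed, and the array p stayed that of the deposited ratio. The selection took 2 of the 13 member probes, Nppa probe 1 and Nppc, both brighter in Cy3, where it took 0.511% of all tested probes in that direction and 0.406% in Cy5. It took Nppa probe 1 alone with normexp and loess, beside 0.254% of tested probes in Cy3, and no member with normexp and centring on the median, beside 0.108%. Nppa probe 2 failed it on replicate 3 alone and entered when replicate 3 was left out. Both Nppb probes failed it on replicate 2 alone and entered when replicate 2 was left out. Leaving out replicates 1, 2 and 3 in turn, the selection took 1.49%, 2.15% and 2.25% of tested probes in Cy3.

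The dye step moved these ratios. Before the dyes were normalized, with background subtracted, the log2 ratios of Nppa probe 1 were -0.19, -0.30 and -0.48, and those of Nppb probe 2 were -0.55, 0.12 and 0.19 on replicates 1, 2 and 3. The median over all tested probes before normalization was 0.69, 0.36 and 0.37, so each of these values lay below its array's median. Nppa probe 2 read 0.16 on replicate 3 at that stage, and Nppb probe 1 read 0.058 and Nppc read 0.047 on replicate 2, each above 0 but below the median of the array. Before the dye step, 4 of the 5 peptide probes thus had an array above 0. The part of the dye step in the result was not tested.

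Nppa probe 1 and both Nppb probes were set beside other probes of like signal. Among 338 tested probes with a mean signal of at least 50000 and no saturated spot, 3.25% were brighter in Cy3 on all arrays and the median log2 ratio was 0.096, with means from -0.84 to 0.74. Nppb probe 1, Nppb probe 2 and Nppa probe 1 had the lowest, the next lowest and the third lowest mean of these probes. This rank depends on the cutoff and the filter. The unsaturated Myh7 probe, with a mean signal of 45465, lay under the cutoff and had a mean of -2.16. The other Myh7 probe (50379, with a mean of -1.82) was left out as saturated. The rank was read with the processed signals only. Saturated probes stood elsewhere, since of 199 that were tested 42.2% were brighter in Cy3 on all arrays, with a median log2 ratio of -0.16. No Nppa or Nppb spot carried the saturation flag.

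**Figure D3:**
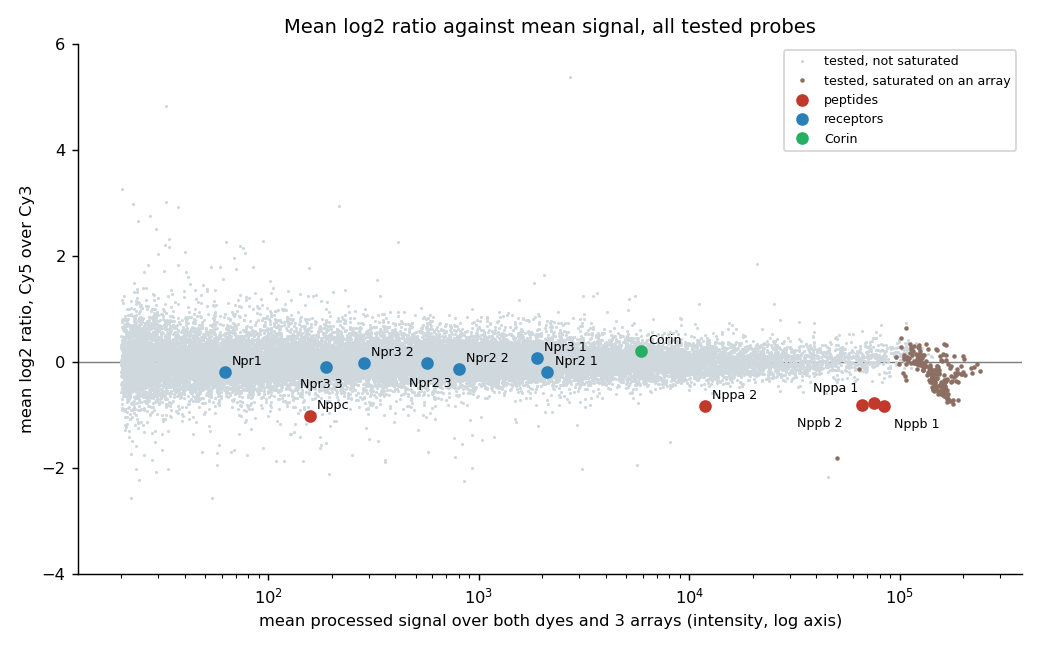
Mean log2 ratio of Cy5 over Cy3 (vertical axis) against the mean processed signal over both dyes and 3 arrays (horizontal axis, intensity on a log axis) for all 29576 tested probes, with the member probes in color. Nppa probe 1 and the Nppb probes lie below most unsaturated probes of like signal (grey). The saturated probes (brown) bend downward at the bright end, and the receptors lie within the grey cloud.

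Nppb and Nppa are neighbors on mouse chromosome 4 and are read from the same strand, so their promoters are shown side by side because their probes moved in the same direction. The 250 bases before each start in RefSeq (build GRCm38.p6) were chr4:148000472-148000721, plus strand, for Nppa and chr4:147985650-147985899, plus strand, for Nppb. Capitals mark the matches on either strand to any of 4 motifs, which do not overlap each other here. The TATA box was searched as TATAAA. The motif of GATA factors, which drive many cardiac genes, was searched only as AGATAA. The motif of NK2 homeobox factors such as Nkx2-5 was searched as TNAAGTG. The MCAT element, which TEAD factors bind, was searched as CATTCC.
Nppa promoter: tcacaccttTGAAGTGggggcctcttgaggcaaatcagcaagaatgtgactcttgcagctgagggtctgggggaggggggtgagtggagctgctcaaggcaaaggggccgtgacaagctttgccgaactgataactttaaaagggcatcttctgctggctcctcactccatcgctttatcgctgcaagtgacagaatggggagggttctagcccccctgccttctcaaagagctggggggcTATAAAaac
Nppb promoter: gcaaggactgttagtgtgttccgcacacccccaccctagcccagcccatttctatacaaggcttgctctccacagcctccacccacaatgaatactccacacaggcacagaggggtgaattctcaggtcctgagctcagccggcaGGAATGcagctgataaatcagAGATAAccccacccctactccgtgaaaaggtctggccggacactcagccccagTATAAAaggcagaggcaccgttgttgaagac
The Nppa window held 1 TATA box and 1 match to TNAAGTG, and the Nppb window held 1 TATA box, 1 AGATAA and 1 CATTCC, the last on the minus strand. The Nppc window of the same length held 1 TATA box, and the windows of Corin, Npr1, Npr2 and Npr3 held none of these letters. Of 32851 promoter windows in the table, 12.4% held TATAAA, 9.99% AGATAA, 10.1% TNAAGTG and 12.6% CATTCC. The Nppa and Nppb windows also hold TGATAA in lower case, which was not searched. Sites for GATA factors in other letters were therefore not counted. The matches are descriptions of the letters, and no binding was measured.

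Corin was read by 1 probe, with processed signals of 5658, 7214 and 6059 in Cy5 and of 4276, 10013 and 3816 in Cy3. Cy3 was brighter on replicate 2 and Cy5 on the other arrays, and the channels overlapped. The log2 ratios were 0.40, -0.47 and 0.67, with a mean of 0.20 ± 0.60 (SD, n = 3) and a 95% interval of -0.37 to 0.77. Leaving out replicate 2 gave 0.54 and leaving out replicate 3 gave -0.035. The mean was 0.33 with normexp and loess, 0.61 with normexp and centring, and 0.32 with background-subtracted signals centred on the median. The Cy5 levels lay close together, with an SD of 0.16 on the log2 scale, and the Cy3 levels spread with an SD of 0.45.

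Npr1, the receptor of ANF and BNP, was dim, with processed signals of 65.3, 72.7 and 41.4 in Cy5 and of 76.8, 144 and 26.4 in Cy3. Its log2 ratios were -0.23, -0.99 and 0.65, with a mean of -0.19 ± 0.82 (SD, n = 3) and a 95% interval of -1.04 to 0.65. The arrays did not share a direction, and the spread lay in Cy3, where the level had an SD of 1.04 on the log2 scale against 0.25 in Cy5. Without replicate 2 the mean was 0.21.

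The Npr1 probe and probe 2 of Npr2 cover the same stretch of these related receptor cyclases, so they are shown with the bases they share in capitals.
Npr1 probe 1: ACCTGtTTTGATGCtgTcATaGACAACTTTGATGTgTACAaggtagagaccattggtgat
Npr2 probe 2: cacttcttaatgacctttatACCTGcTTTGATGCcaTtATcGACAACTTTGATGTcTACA
Over the 40 bases in which they overlap without gaps, 34 were identical. Neither probe had a common direction over the arrays, and their ratios had the same order over the arrays, with replicate 2 lowest and replicate 3 highest. How far each probe takes up the other transcript was not tested.

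Npr2, the CNP receptor, had 3 probes. Probe 1 read 1729, 2368 and 1883 in Cy5 and 1544, 3365 and 2223 in Cy3, and its log2 ratios were 0.16, -0.51 and -0.24, with a mean of -0.19 ± 0.34 (SD, n = 3) and a 95% interval of -0.67 to 0.28. Cy3 was brighter on replicates 2 and 3. Probe 2, shown above, had log2 ratios of -0.0030, -0.65 and 0.24, with a mean of -0.14 ± 0.46 (SD, n = 3). Probe 3 had log2 ratios of 0.16, 0.40 and -0.63, with a mean of -0.027 ± 0.54 (SD, n = 3). The probes of this gene disagreed, since replicate 2 was the lowest for probes 1 and 2 and the highest for probe 3. The means of all 3 probes turned above 0 with normexp background correction, followed by loess or by centring on the median, and with background-subtracted signals centred on the median.

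Npr3, the clearance receptor, had 3 probes, which gave replicates 1 and 3 the same directions. Probe 1 read 2147, 2639 and 1275 in Cy5 and 1776, 1916 and 1807 in Cy3, with log2 ratios of 0.27, 0.46 and -0.50. Probe 2 had log2 ratios of 0.39, 0.13 and -0.58, and probe 3 had 0.40, -0.031 and -0.63. Replicate 3 was brighter in Cy3 by all 3 probes and replicate 1 was brighter in Cy5 by all 3. The means were 0.078 ± 0.51 for probe 1, -0.017 ± 0.50 for probe 2 and -0.085 ± 0.52 for probe 3 (SD, n = 3). Their 95% intervals were -0.46 to 0.62, -0.62 to 0.59 and -0.72 to 0.55. With normexp and centring the mean of probe 1 was 0.43. Unlike Npr1 and Corin, Npr3 varied more in Cy5 than in Cy3, with an SD of 0.31, 0.42 and 0.58 in Cy5 and of 0.26, 0.12 and 0.18 in Cy3 on the log2 scale for probes 1, 2 and 3. In bulk RNA, fewer cells of a type and less RNA per cell cannot be told apart. A dim probe of an aorta and vein cDNA clone, which the array describes as an Npr3 product without giving it the symbol, was no member by the rule, and it was looked at after its values were seen. Its log2 ratios were 0.47, 0.46 and 0.78, brighter in Cy5 on all arrays, and the selection took it, unlike the 3 Npr3 probes. Its mean was 0.57 ± 0.18 (SD, n = 3; limma, adjusted p = 1.00). The mean was 0.13 with normexp and loess, 0.047 with normexp and centring, and 0.39 with background-subtracted signals centred on the median. The selection took this probe in none of these settings.

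For the receptors as a group, the median of the 7 mean log2 ratios was -0.085, with a range from -0.19 to 0.078, beside a median of 0.0014 over all tested probes. For the 5 peptide probes the median was -0.84. The 95% interval of each receptor probe spanned 0 and reached at least 0.28 above it and 0.46 below it. A difference of the size seen for the peptides with the processed signals of all 3 arrays lay inside the interval of Npr1, whose lower bound was -1.04. It lay outside the intervals of the other receptor probes. Some peptide means were nearer to 0 under other settings and lay inside these intervals. Nppb probe 2, for example, was -0.43 without replicate 1 and -0.23 with normexp and centring.

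**Figure D4:**
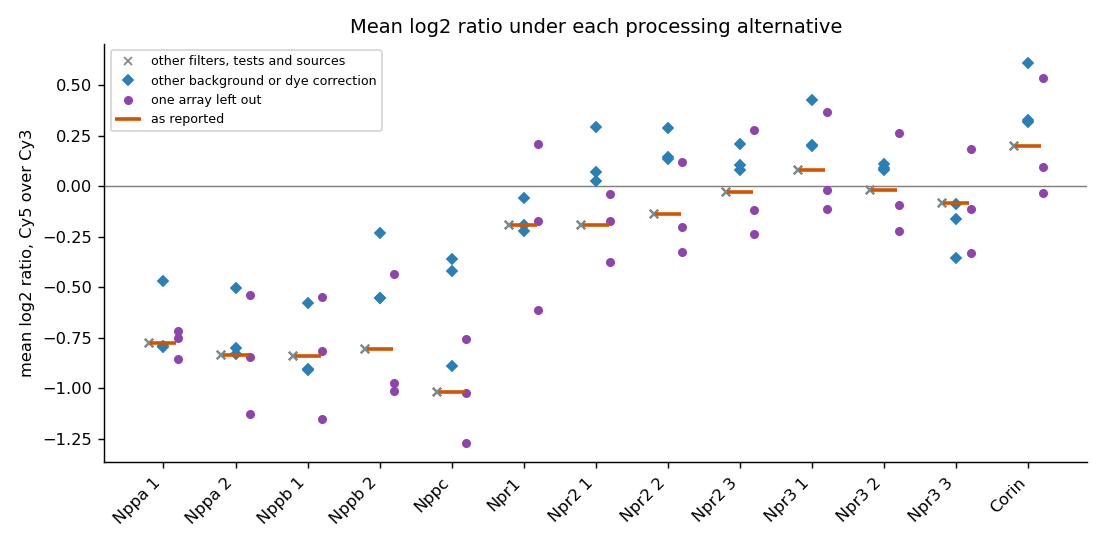
Mean log2 ratio of Cy5 over Cy3 (vertical axis) of each of the 13 probes (horizontal axis) as reported (orange), under other background or dye corrections (blue), with 1 array left out (purple) and under the other filters, tests and sources (grey). The peptide probes stay below 0 throughout, with the nearest at -0.23, whereas the receptors and Corin each have values on both sides of 0.

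Genes that act around these members were taken from a list of 56 symbols, of which 53 were on the array and 47 had a tested probe. Each was read by its brightest probe. Gucy1a1 and its older symbol Gucy1a3 were counted apart among the 47. limma called 0 of the 47, against 0.00971% of all 20603 tested genes. At an unadjusted limma p of 0.05, 2 genes brighter in Cy5 and 0 in Cy3 passed, beside 1.54% and 1.77% of all tested genes. The selection took 1 gene, brighter in Cy5, where it took 0.442% of all genes in Cy5 and 0.612% in Cy3. On all 3 arrays, 6 of the 47 were brighter in Cy5 and 5 in Cy3, beside 9.47% and 12.2% of all genes. The median log2 ratio of the list was 0.024, and that of all genes was -0.0088.

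The gene taken by the selection was Prkg1, the cGMP-dependent kinase that carries out most effects of cGMP in muscle cells. Its processed signals gave log2 ratios of 1.05, 0.47 and 0.57, with a mean of 0.70 ± 0.31 (SD, n = 3; limma, adjusted p = 1.00), brighter in the channel labeled Lrrc10-/- on each array. Over all 7 tested cGMP targets the median was 0.015. Phosphodiesterases are enzymes that break down cyclic nucleotides, and 9 were tested. Pde1b (-0.38, -0.87 and -0.28), Pde9a (-0.30, -0.41 and -0.61) and Pde1c were brighter in Cy3 on all arrays, beside 12.2% of all genes. Pde3a was brighter in Cy5, beside 9.47% of all genes. None of those in Cy3 passed unadjusted in limma, whereas Pde3a did. The median of the 9 was -0.13.

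Among the genes of peptide processing and clearance, the 4 tested ones (Furin, Pcsk6, Ide and Mme) had arrays on both sides of 0, with means from -0.24 to 0.22. Of the 6 tested symbols of cGMP synthesis, 1 was brighter in Cy3 on all arrays, beside 12.2% of all genes, and their median was 0.13. They count Gucy1a1 and its older symbol Gucy1a3 apart. Of the 21 tested regulators of Nppa and Nppb transcription, 4 were brighter in Cy5 on all arrays (Tbx3, Tbx5, Tbx20 and Mef2a) and 1 in Cy3 (Tbx2). This stands beside 9.47% of all genes in Cy5 and 12.2% in Cy3. The median of the regulators was 0.079, and none passed unadjusted in limma. Tbx5, a T-box activator of Nppa, had log2 ratios of 0.53, 0.36 and 0.15. Gata4 read 0.30, -0.17 and -0.17 and Nkx2-5 read 0.028, -0.42 and 0.59, and neither kept to 1 channel. Apart from Prkg1, the pathway genes named here were chosen after their values were seen.

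**Figure D5:**
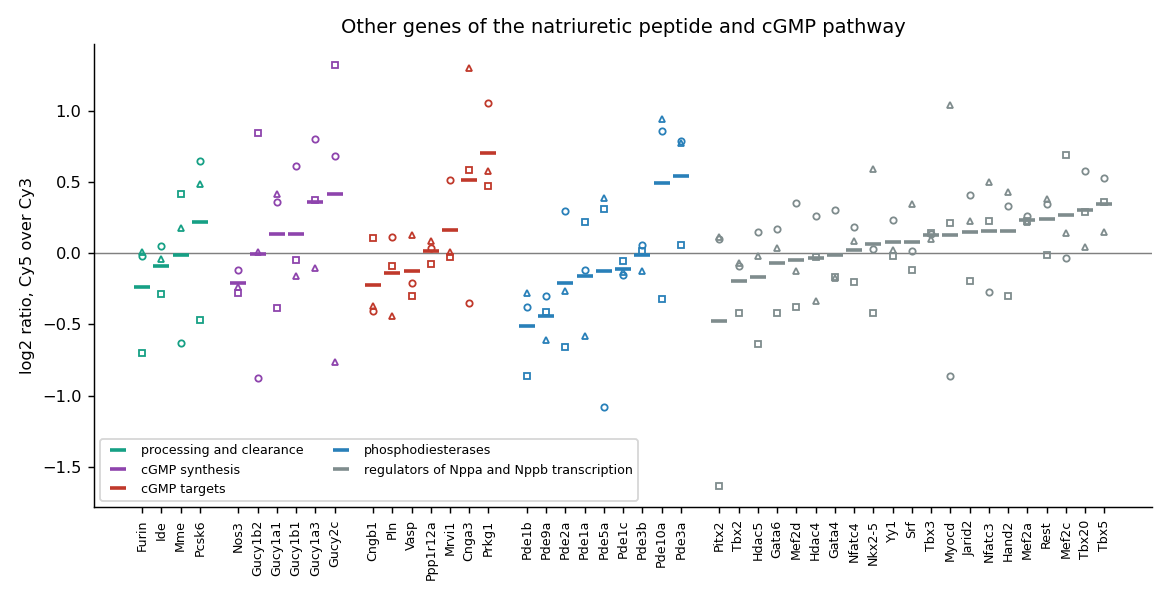
Log2 ratio of Cy5 over Cy3 (vertical axis) of the 47 other tested symbols of the pathway (horizontal axis), by role. Replicates 1, 2 and 3 are open circles, squares and triangles, and the mean is a line. Prkg1 lies above 0 on all arrays, and most genes have arrays on both sides of 0.

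Genes of the fetal and stress program were read beside the peptides. Myh7, the fetal heavy chain of myosin, was brighter in Cy3 on all arrays by both of its probes. The brighter one, saturated on an array, had log2 ratios of -1.99, -2.58 and -0.88, and the other, unsaturated, had -2.14, -3.45 and -0.90 with a mean of -2.16 ± 1.28 (SD, n = 3; limma, adjusted p = 0.835). Acta1, the skeletal actin, had -0.18, 0.54 and -0.45, and Ankrd1, a stress-responsive ankyrin repeat protein read by a probe with saturated spots, had -0.28, -1.04 and 0.33. Neither kept to 1 channel. Myh7 was lowest on replicate 2, whereas the peptide probes were lowest on replicate 1.

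The genes whose 3 log2 ratios lay nearest to those of the members were listed by root mean square difference over the 3 arrays, among 25745 probes well above background in both dyes on all arrays. Nearest to Nppa probe 1 were Arl15 (0.067), Phlda1 (0.069), Aldoa (0.088), Gng8 (0.092) and Cox4i1 (0.092), with the probes of Aldoa and Cox4i1 saturated on an array. Nearest to Nppb probe 1 were C230035I16Rik (0.14), Nppc (0.20), A230107N01Rik (0.21), Kremen1 (0.22) and Scx (0.22). Nppc was thus the second nearest gene to Nppb by this measure.

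The labelled tissue was checked against markers. All 9 cardiomyocyte markers were well above background in both dyes on all arrays, with 8 of them saturated on an array. The same held for 5 of 5 ventricular, 7 of 7 endothelial and endocardial, 7 of 7 fibroblast and 4 of 4 smooth muscle markers, of which 3 ventricular ones were saturated on an array. Of 8 atrial markers, 7 were tested and 6 were well above background, with no probe of Bmp10 or Dkk3 well above background throughout. Because Nppa is an atrial gene, the atrial markers were read array by array. Sln, the atrial regulator of the calcium pump, had log2 ratios of 0.084, 3.69 and -1.15, and Myl7, the atrial light chain of myosin, had -0.21, 3.41 and -1.27. Both were far brighter in Cy5 on replicate 2 and brighter in Cy3 on replicate 3, while Nppa probe 1 read -0.61 and -0.82 on those arrays. The other atrial markers had other patterns. Kcnj3, a channel subunit of atrial muscle, was brighter in Cy5 on all arrays (0.75, 0.53 and 1.37) and was taken by the selection, the 1 marker of the 7 tested that kept to a channel, beside 9.47% of all genes in Cy5 and 12.2% in Cy3. Nr2f2 read 0.76, -0.34 and -0.26, Gja5 read 0.079, -0.37 and 0.30, Myl4 read -0.12, 1.41 and 0.23, and Dkk3 read 1.32, 0.094 and -0.50. The median of the atrial list was 0.084, 0.53 and -0.26 on replicates 1, 2 and 3, and its summed signal ranged from 4071 to 13552 in Cy5 and from 3732 to 9325 in Cy3. The part of these markers in the Nppa ratios was not tested.

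The other marker lists were read in the same way, beside 12.2% of all genes brighter in Cy3 on all arrays and 0.612% taken by the selection in Cy3, and beside 42.2% of saturated probes brighter in Cy3 on all arrays. The cardiomyocyte list had a median of the mean log2 ratios of -0.25 (atrial list, 0.51), with 5 of 9 genes brighter in Cy3 on all arrays and 3 taken by the selection in Cy3 (Mb, Myl2 and Tnnt2), all 3 saturated on an array. Its unsaturated gene, Ryr2, had log2 ratios of 0.23, -1.08 and -0.21. The summed cardiomyocyte signal ranged from 1080015 to 1470219 in Cy5 and from 1232526 to 1917878 in Cy3. The ventricular list, which shares Myl2 and Myl3 with it, had a median of -0.25, with 3 of 5 genes brighter in Cy3 on all arrays and 2 taken by the selection (Myl2 and Fhl2, both saturated on an array), and its summed signal ranged from 375124 to 552876 in Cy5 and from 488378 to 719969 in Cy3. The medians were -0.26 for the endothelial and endocardial list, with 2 of 7 genes brighter in Cy3 on all arrays, -0.035 for the fibroblast list and 0.038 for the smooth muscle list. Array by array, the medians on replicates 1, 2 and 3 were -0.35, -0.48 and -0.21 for the cardiomyocyte list, 0.31, -0.24 and -0.035 for the fibroblast list and 0.19, -0.16 and 0.54 for the smooth muscle list. The summed signals were 17497 to 24083 in Cy5 and 19463 to 38313 in Cy3 for the endothelial and endocardial list, 126458 to 197909 and 123888 to 193271 for the fibroblast list, and 18158 to 34287 and 21715 to 30751 for the smooth muscle list. The part of these lists in the peptide ratios was not tested.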

How the data were processed

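Total heart RNA was amplified, labeled with Cy5 or Cy3 and hybridized to Agilent whole mouse genome arrays, 3 in all. The authors deposited Agilent Feature Extraction 9.1.3.1 output for each array. Its mean and background intensity columns, as deposited, are unnormalized, and its deposited processed signal intensities had local background removed and both dyes brought to 1 scale within an array, first linearly and then by lowess. The deposited log10 ratio is Cy5 over Cy3 of the processed signals, and the deposited p-value belongs to a single ratio. The authors' table of log10 ratios for the series equaled those of the arrays (largest difference 0) except for 1 value it lacked, and each of its columns had a median of 0. Low processed signals are set by a surrogate, and the lowess step can hide a difference shared by most genes.

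Ratios were put on the log2 scale, outlier spots (11, 21 and 4 on replicates 1, 2 and 3) were left out, and copies of a probe were averaged. Saturated spots were kept, which were 140, 150 and 197 in Cy5 and 55, 81 and 126 in Cy3. The median processed signal per array was 143, 174 and 125 in Cy5 and 144, 172 and 126 in Cy3. Probes with a geometric mean signal of at least 20 were tested with limma 3.58.1 in R 4.3.3 (intercept against 0, eBayes with an intensity trend, two-sided, Benjamini-Hochberg over all tested probes). The test was tested on simulated data. Levels per channel came from Aquantile normalization. Genes were named by RefSeq accession where matched and otherwise by the array's own name, which can be old. The number of arrays limits the precision. Nothing in the labels says more than that the arrays are separate samples of 1 group.

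Named genes were all member probes, Lrrc10, pathway genes taken by the selection or called, Myh7, Acta1 and Ankrd1, and the 5 nearest genes to Nppa and to Nppb. The other pathway genes and the marker genes with values were named after these were seen. Members, lists and alternatives were chosen with earlier results of these data known. Embryonic hearts were not analysed here.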

Additional observations from a re-analysis of the deposited data

How the results depend on the processing

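The 5 peptide means stayed below 0 under every alternative tried, from -1.27 to -0.23, and no peptide probe was called except Nppa probe 2 without replicate 3 (-1.13). The number of peptide probes brighter in Cy3 on all arrays, an alternative chosen after seeing the data, fell from 5 to 2 with normexp and centring on the median, while the share of all tested probes rose from 11.0% to 28.3%. Means of peptide probes moved by over 1.5 times while staying below 0, namely to -0.36 for Nppc with normexp and loess, and with normexp and centring to -0.42 for Nppc, -0.23 for Nppb probe 2 and -0.47 and -0.50 for Nppa probes 1 and 2, and without replicate 1 to -0.54 for Nppa probe 2 and -0.55 and -0.43 for Nppb probes 1 and 2. Several receptor means turned sign. With normexp and loess, normexp and centring, and background-subtracted signals centred on the median, Npr2 probe 1 gave 0.070, 0.29 and 0.024, Npr2 probe 2 gave 0.14, 0.29 and 0.13, Npr2 probe 3 gave 0.081, 0.21 and 0.10, and Npr3 probe 2 gave 0.079, 0.11 and 0.091. Leaving out each array in turn gave ranges of -0.61 to 0.21 for Npr1, -0.37 to -0.038, -0.32 to 0.12 and -0.24 to 0.28 for Npr2 probes 1 to 3, -0.11 to 0.37, -0.22 to 0.26 and -0.33 to 0.19 for Npr3 probes 1 to 3, -0.035 to 0.54 for Corin, -0.86 to -0.72 and -1.13 to -0.54 for Nppa probes 1 and 2, -1.15 to -0.55 and -1.01 to -0.43 for Nppb probes 1 and 2, and -1.27 to -0.76 for Nppc. The cause was not tested.

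Probes called by limma over the whole array, 2 in Cy5 and 0 in Cy3, became 1 and 0 with normexp and loess, 33 and 8 with normexp and centring, 0 and 0 with no signal minimum or with the methods' t-test, and 1 and 0 with a signal minimum of 50 or with probes well above background alone. Leaving out an array gave 0 to 409 in Cy5 and 0 to 134 in Cy3, both highest without replicate 3. The selection, 120 and 151 probes, became 60 and 75 with normexp and loess, 59 and 32 with normexp and centring, 273 and 330 with limma's unadjusted p, 286 and 334 with the t-test p, and 507 and 577 with no p criterion, and 573 to 1167 and 440 to 666 with an array left out. The median of the pathway genes, 0.024, moved to 0.24 with normexp and centring. Counting the peptide means that moved as above, 232 values kept their direction, except that median without replicate 3 (-0.0079), and their side of the adjusted p threshold where tested, with counts within 1.5 times. Unadjusted p and the selection changed for single probes. No pairing beyond the array was possible because the labels give 1 group of arrays, so no replicate number is shared between groups. Each ratio already pairs the channels of an array, and limma tested these ratios against 0. Precision is limited by 3 arrays, and Nppc and Npr1 by their dim signals.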
